A study of Mus musculus with 157 samples.

Results

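Mitochondrial ribosomal protein genes are the nuclear genes that encode the protein part of the mitochondrial ribosome. They were taken as the protein-coding rows whose symbol is Mrpl or Mrps, a number and at most 1 letter, in each of the 8 expression tables of mouse bone marrow-derived macrophages. The rule uses names and no measured value. It found 78 of 24940 gene symbols, of which 51 encode proteins of the large subunit and 26 proteins of the small subunit. Mrps36 was put in neither, since its product is now counted as a subunit of the 2-oxoglutarate dehydrogenase complex. By their accepted homology 46 members have a bacterial counterpart and 31 are particular to mitochondria. Mrps18a and Mrps18b were counted among the latter, although they are related to a bacterial protein. The symbol does not always give the subunit: the products of Mrps30 and Mrps18a sit in the large one. Genes of the same ribosome with other names, such as Dap3, fell outside the rule and are given only as a list beside it.

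The mitochondrial ribosome translates the few messages of mitochondrial DNA, all of which encode membrane-bound subunits of the respiratory chain and ATP synthase. Its proteins are made in the cytosol from nuclear genes and imported, while its ribosomal RNA is transcribed inside the organelle. Compared with a bacterial ribosome it has lost much of its RNA and gained proteins found in no bacterium. Macrophages rely on both glycolysis and mitochondrial respiration and change the balance between them when they are activated or take up particles.

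The study exposed cultured macrophages to particles and asked how their transcription responded. The particles were monosodium urate crystals (MSUc, the crystals of gout), calcium pyrophosphate crystals (CPPD, those of pseudogout), silica nanoparticles and aluminum hydroxide salt (alum, a vaccine adjuvant), each at 250 ug/mL, and controls received PBS. One experiment sampled MSUc and PBS at 10 min, 30 min, 1 h, 2 h and 5 h with 2 libraries a group. A particle experiment compared alum (2 libraries), silica (2), CPPD, MSUc and PBS (3 each). The titles also list alum replicate 3, which has no column of values, while a further silica column has no title. The numbers of alum and silica libraries thus rest on the columns that match a title. A Tfe3 experiment compared Tfe3KO with Tfe3WT cells, each given silica, CPPD, MSUc or PBS (3 libraries a group). MSUc and PBS were also compared in TfebTg and TfebWT cells (2 TfebWT libraries in PBS, 3 in the other groups), in Bhlhe40-/- (B40KO), Bhlhe41-/- (B41KO) and WT cells (2 each), in Ampka1KO cells and congenic WT cells from mice 7 to 8 weeks old (3 each), with the DOT1L inhibitor SGC0946 (1 uM, from day 0) or vehicle (2 libraries of SGC0946 in PBS, 3 in the other groups), and with metformin or vehicle (3 each). Ampka1 is Prkaa1, which encodes a catalytic subunit of the energy sensor AMPK. All cells were grown from bone marrow with M-CSF, at 5 ng/mL in the Ampka1 experiment and 16 ng/mL in the others. The labels name C57BL/6 mice and give no age outside the Ampka1 experiment. The labels give neither the dose of metformin, nor the part of each gene that was deleted, nor the promoter of the Tfeb transgene, nor, outside the time course, the hours of exposure. They do not say that replicates came from separate animals or cultures, so p-values here measure the spread between libraries, which may be technical.

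The 115 libraries held 2.12 to 22.1 M recovered reads (median 10.1 M). All 7 macrophage markers, such as Csf1r and Adgre1, averaged above 1 TPM in every group. TPM is a transcript count scaled for transcript length and library total. Tfeb had 75.1 to 86.5 TPM in TfebTg cells and 43.7 to 44.4 TPM in TfebWT cells, both in PBS, and Bhlhe40 had 5.59 to 6.93 TPM in B40KO cells against 57.8 to 76.1 TPM in WT cells. Tfe3 had 66.7 to 70.0 TPM in PBS in the libraries labelled Tfe3KO, against 94.2 to 104 TPM in Tfe3WT, with silica 31.1 to 43.2 TPM against 52.3 to 57.8 TPM, and with CPPD 85.4 to 97.7 TPM against 98.4 to 108 TPM. With MSUc it was the other way, at 84.9 to 87.3 TPM against 79.7 to 83.3 TPM. Bhlhe41 had 46.3 to 49.8 TPM in B41KO and 49.8 to 55.9 TPM in WT cells in PBS, and 49.5 to 50.3 TPM against 90.1 to 94.9 TPM with MSUc. Prkaa1 had 24.3 to 27.3 TPM in PBS in the libraries labelled Ampka1KO and 23.1 to 25.4 TPM in WT, ranges that overlap. A total over the transcript does not show whether the deleted part is missing. In 12 libraries titled Tfe3WT the genotype field reads Tfe3KO, and in TfebWT MSUc replicate 3 the treatment field reads PBS; groups follow the titles.

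Members differed widely in level. Over the 47 PBS libraries the median of the members' median levels was 25.4 TPM. It was 26.7 TPM for the large subunit and 21.3 TPM for the small one. The lowest members were Mrpl23 at 0.29 TPM, Mrps36 at 1.10 TPM, Mrps33 at 2.95 TPM and Mrpl17 at 5.94 TPM. Mrpl24, whose product lies near the mouth of the peptide exit tunnel, was highest at 65.2 TPM (41.3 to 87.8 TPM over PBS libraries). It was followed by Mrpl33 at 62.3 TPM, Mrpl52 at 57.1 TPM and Mrpl30 at 55.9 TPM, and the ranges of these 4 over PBS libraries overlap. The Mrps18 family has 3 members, all related to 1 bacterial protein. Mrps18a had a median of 46.7 TPM (30.8 to 74.1 TPM), Mrps18c 41.04 TPM (12.7 to 74.0 TPM) and Mrps18b 12.8 TPM (8.42 to 20.9 TPM). The level of 6 members (Mrps14, Mrps2, Mrpl30, Mrpl42, Mrps23 and Mrps10) rests on a transcript that differs between tables, so their levels are comparable only within a table. Many of these genes have processed pseudogenes, and how shared reads were counted is not stated in the sources used here.

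Promoters were set beside the changes, since genes for mitochondrial proteins are known for sites of ETS factors (GABPA), NRF1 and YY1. RefSeq promoters of GRCm38.p6 (250 bases before to 50 after a start site) were found for 69 members. For Mrpl2, Mrpl48 and Mrps16 several start sites were listed, and only the first was searched. Searched on both strands, the letters CGGAAG, the core of ETS sites, stood in 38 of 69 members' promoters (55.1%), against 17.2% of all 27025 promoters and 33.5% of the 9342 of genes tested at 5 h. The longer ETS form CCGGAAGT, which contains that core, was in 15.9% of members' promoters, 4% of all promoters and 8.99% of tested genes' promoters. The YY1 letters AAGATGGC were in 12 members' promoters (17.4%, against 2.88% and 5.07%) and, counting only bases before the start, in 4. The palindromic NRF1 site, spelled in capitals in the Mrpl39 promoter printed here, was in 3, those of Mrpl9, Mrpl32 and Mrpl39 (4.35%, against 0.977% and 2.21%). The E-box CACGTG, the core of sites of TFE3 and BHLHE40, was in 5 (7.25%, against 7.24% and 10.7%), and the longer CLEAR form, which contains it, is known from TFEB and TFE3 targets and is spelled in capitals in the Mrpl2 promoter, in those of Mrpl2 and Mrps18c (2.90%, against 0.359% and 0.856%). The members' promoters had a median of 58.3% G and C, against 52.7% for all promoters. The promoters printed here are shown for members that the results turn on, Mrpl39 and Mrps18b as the pair that was higher with MSUc in every experiment, and Mrpl28 and Mrpl2 as the pair with the largest falls with silica in the particle experiment. Capitals mark the motif letters found on either strand.
Mrpl39: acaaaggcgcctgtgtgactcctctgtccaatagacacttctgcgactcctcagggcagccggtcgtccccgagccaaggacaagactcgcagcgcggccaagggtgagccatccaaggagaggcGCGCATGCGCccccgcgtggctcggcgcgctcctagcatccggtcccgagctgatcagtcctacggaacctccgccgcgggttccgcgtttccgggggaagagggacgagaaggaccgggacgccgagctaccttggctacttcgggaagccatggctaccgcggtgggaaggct
Mrps18b: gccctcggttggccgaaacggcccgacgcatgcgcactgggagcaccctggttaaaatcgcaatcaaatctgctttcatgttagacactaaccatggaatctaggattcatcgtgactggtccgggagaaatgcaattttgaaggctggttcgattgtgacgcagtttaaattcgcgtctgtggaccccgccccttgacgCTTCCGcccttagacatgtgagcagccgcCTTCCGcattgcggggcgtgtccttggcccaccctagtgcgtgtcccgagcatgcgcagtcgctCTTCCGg
Mrpl28: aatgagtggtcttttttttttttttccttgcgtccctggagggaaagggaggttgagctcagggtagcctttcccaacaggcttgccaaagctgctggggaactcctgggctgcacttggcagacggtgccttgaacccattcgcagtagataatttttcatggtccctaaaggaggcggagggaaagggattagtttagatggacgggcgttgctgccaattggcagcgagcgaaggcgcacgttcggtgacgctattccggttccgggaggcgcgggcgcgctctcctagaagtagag
Mrpl2: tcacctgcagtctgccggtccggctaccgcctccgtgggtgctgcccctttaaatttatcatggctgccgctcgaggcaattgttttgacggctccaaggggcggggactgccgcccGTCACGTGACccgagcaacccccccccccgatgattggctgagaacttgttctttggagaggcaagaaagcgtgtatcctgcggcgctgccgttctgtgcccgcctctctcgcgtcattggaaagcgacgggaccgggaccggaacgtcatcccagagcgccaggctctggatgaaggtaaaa
The Mrpl39 window is chr16:84735195-84735494 on the minus strand and holds the NRF1 letters 125 bases before the start. That of Mrps18b, chr17:35916391-35916690 on the minus strand, holds the ETS core 3 times, read on the opposite strand. Mrpl28, chr17:26123253-26123552 on the plus strand, held no letters of these 6 motifs. Mrpl2, chr17:46645971-46646270 on the plus strand, holds the CLEAR letters, and the E-box inside them, 133 bases before the start. A match describes the letters only.

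The time course showed how soon after MSUc these genes differed. At 2 h 24 of 76 tested members fell, which is 31.6% against 22.3% of all genes, and at 5 h 31 fell, which is 40.8% against 32.9%. Mrps6, Mrpl39 and Mrpl32 rose at 5 h. The balance depended on scaling, since at 5 h 10 rose and 14 fell after median-of-ratios scaling and 11 rose and 12 fell after length centring. The summed level of the family was 2055 ± 17.3 TPM at 10 min with MSUc against 2114 ± 100.4 TPM with PBS, and 1937 ± 76.4 TPM against 2105 ± 40.6 TPM at 30 min. At 1 h it was 1887 ± 14.9 TPM with MSUc against 2112 ± 5.87 TPM with PBS, and at 2 h 1779 ± 82.6 TPM against 2174 ± 67.5 TPM. At 5 h it was 1689 ± 64.5 TPM against 2084 ± 15.9 TPM (SD, n = 2 throughout). The libraries of both groups overlapped at 10 min and stood apart from 30 min on. Fewer cells of a type and less RNA per cell cannot be told apart in such bulk samples.

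A member is said to rise or fall where the Benjamini-Hochberg adjusted p of limma over all genes tested was under 0.05, on log2(TPM + 1). Shares of all genes are at this adjusted threshold throughout. Counts marked unadjusted are of members only and cannot be set against those shares. Members named for a particle comparison were picked among those without overlap between groups. Lack of overlap is thus no separate support for them. At 10 min no member passed (1 higher and 3 lower at an unadjusted p under 0.05), where 0.0567% of 12350 genes did. None passed at 30 min (0 higher and 4 lower unadjusted), where 0.68% of all genes did. The reads recovered from these tables, tested with voom, gave 0 members at both times. The median change of the members was -0.01 at 10 min and -0.12 at 30 min, against 0.01 over all genes at both.

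At 1 h 3 members fell and none rose (12 lower and 0 higher unadjusted), where 0.947% of all genes fell and 2.33% rose. Mrpl44, which encodes a large subunit protein with a fold like ribonuclease III, had 17.8 and 16.8 TPM with MSUc, against 31.1 and 24.2 TPM with PBS (log2 change -0.63, SE 0.11, limma adjusted p = 0.00623). Mrpl27, whose product reaches the peptidyl transferase centre, had 36.2 and 30.5 TPM with MSUc, against 51.6 and 47.5 TPM with PBS (-0.56). Mrps2 had 24.1 and 23.2 TPM with MSUc, against 29.9 and 31.1 TPM with PBS (-0.36). The groups did not overlap for any of the 3. The count was 0 without PBS replicate 1, 1 without MSUc replicate 2 and 0 when only the compared groups were fitted, and 5 fell with voom.

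At 2 h 24 members fell and 0 rose (32 lower and 1 higher unadjusted), where 22.3% of all genes fell and 11.2% rose, so the share that fell was 31.6% of members. Of these 24, 16 belong to the large and 8 to the small subunit. Mrpl44 had 12.3 and 12.8 TPM with MSUc against 26.8 and 27.2 TPM with PBS (log2 change -1.05, SE 0.11). Mrps25, a small subunit gene with no bacterial counterpart, had 7.25 and 7.05 TPM against 12.2 and 12.5 TPM (-0.71), and Mrpl30 had 45.01 and 45.2 TPM against 74.7 and 68.9 TPM (-0.66). Both MSUc libraries lay below both PBS libraries for these members. The count called was 15 without MSUc replicate 2, 14 without PBS replicate 2 and 5 with the compared groups alone. After scaling libraries by the median of ratios 1 rose and 9 fell, and after centring by transcript length 2 rose and 10 fell.

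At 5 h 31 members fell and 3 rose, where 32.9% of all genes fell and 16.4% rose. The share of members that fell was 40.8%, and their median change was -0.28 against -0.23 over all genes. Mrps25 had 7.08 and 7.04 TPM with MSUc against 12.6 and 14.01 TPM with PBS (log2 change -0.83, SE 0.09, limma adjusted p = 7.42e-06). Mrpl28, a large subunit gene with a bacterial counterpart, had 25.7 and 24.9 TPM against 47.3 and 47.3 TPM (-0.88, SE 0.11). Mrpl27 had 25.7 and 28.3 TPM with MSUc and 46.9 and 47.4 TPM with PBS (-0.79). MSUc libraries were lower in each of these. Mrps23 (-0.69), Mrps24 (-0.73) and Mrpl30 (-0.63) also fell, with no overlap between groups.

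Mrps6, the small subunit homologue of bacterial S6, had the largest rise at 5 h, with 47.4 and 35.4 TPM with MSUc against 20.0 and 22.7 TPM with PBS (log2 change 0.91, SE 0.25, limma adjusted p = 0.00926). Mrpl39, a large subunit gene whose product resembles part of a threonyl-tRNA synthetase, had 24.7 and 21.5 TPM against 16.6 and 16.7 TPM (0.45, SE 0.14). Mrpl32, whose product is trimmed by the mitochondrial m-AAA protease before it joins the ribosome, had 37.0 and 34.3 TPM against 26.0 and 29.5 TPM (0.35, SE 0.13). The MSUc libraries were the higher ones in all 3. Without PBS replicate 1 the count called was 21 and without MSUc replicate 2 it was 22. Macrophage markers, all 7 above 1 TPM, summed to 11913.5 to 13546.9 TPM with MSUc against 17417 to 24527 TPM with PBS, and their part in the result was not tested.

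**Figure D1:**
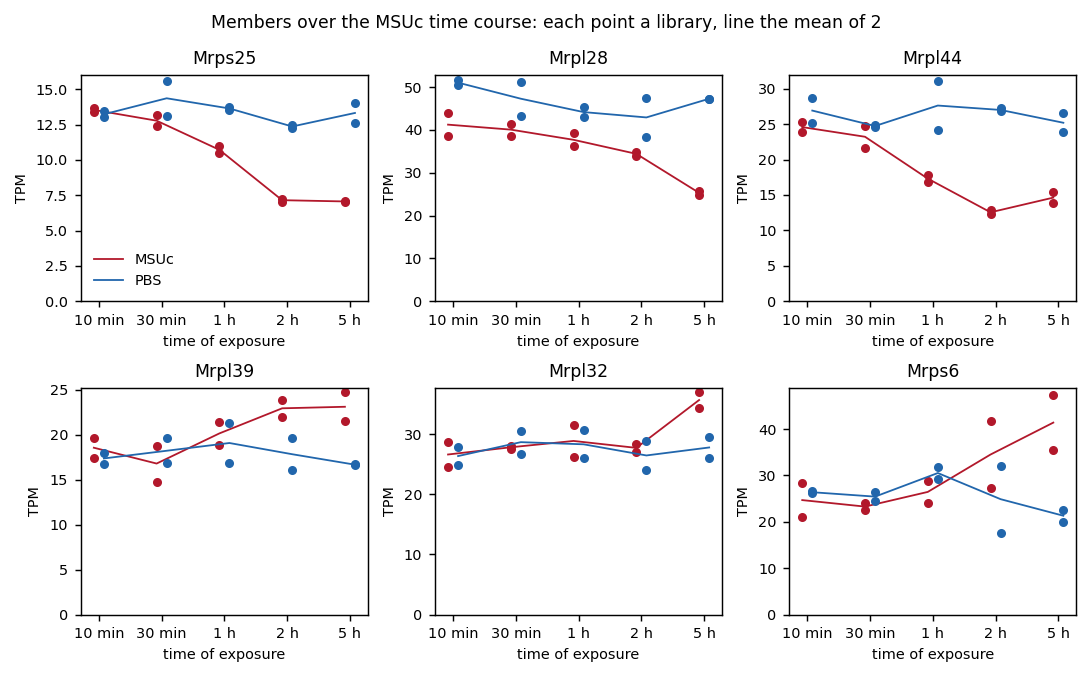
Level in TPM (y axis) of 6 members at each time of exposure (x axis) with MSUc (red) and PBS (blue); each point is a library and each line joins the means of 2 libraries. Mrps25 lies at 7.08 and 7.04 TPM with MSUc at 5 h, against 12.6 and 14.01 TPM with PBS, and Mrps6 at 47.4 and 35.4 TPM against 20.0 and 22.7 TPM.

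Related lists at 5 h were read beside the members, each with up to 4 of the genes of smallest adjusted p. Of 36 Nduf genes, taken as complex I subunit genes, 24 fell and 0 rose (median change -0.53), among them Ndufv3, Ndufc2, Ndufb3 and Ndufb8. Of 74 cytosolic ribosomal protein genes 7 fell and 0 rose (median -0.34), among them Rpl15, Rpl22 and Rps24. Of 23 mitoribosome assembly factors 10 fell and 2 rose. Rbfa, which matures the small subunit, averaged 21.0 ± 1.17 TPM with MSUc against 59.9 ± 4.88 TPM with PBS (log2 change -1.47). Mtg1 (-0.71) and Ngrn (-0.86) fell too. Nsun3 (-0.85) also fell and is counted in this list here and below, although its product modifies a transfer RNA and not the ribosome. Of 15 translation factors 6 fell and 0 rose. Oxa1l, the insertase that receives newly made chains, averaged 21.0 ± 0.154 TPM against 45.1 ± 2.30 TPM (-1.07), and Mtif3 (-0.65), Guf1 (-0.61) and Mtrf1 (-0.80) were the others of smallest p. Of 5 mitoribosomal protein genes with other names, Aurkaip1 (-0.43) and Dap3 (-0.46) fell, while Chchd1 (-0.22) and Ptcd3 (-0.18) did not pass. Of 15 genes of mitochondrial DNA expression Trmt10c rose (0.56) and Polg2 (-0.89), Polrmt (-0.36) and Tfam (-0.42) fell. Of 9 regulators of mitochondrial biogenesis Pprc1 (1.24) and Perm1 (1.07) rose and Esrra fell (-0.88), while Myc (1.65, limma adjusted p = 0.090) did not pass. SD is over 2 libraries.

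MSUc was set against PBS in 8 separate experiments, counting the 5 h point of the time course, and none of their control libraries are shared. In the particle experiment 51 of 78 members fell and 2 rose, where 44.9% of all genes fell and 18.1% rose. The median change was -0.46 for members and -0.29 for all genes. Mrps24 had 17.3, 17.03 and 17.1 TPM with MSUc against 37.0, 38.8 and 30.8 TPM with PBS (log2 change -1.004, SE 0.10, limma adjusted p = 3.29e-06). Mrpl40 had 13.9, 13.9 and 14.04 TPM against 35.2, 36.2 and 30.3 TPM (-1.22), and Mrps21 had 34.9, 26.3 and 28.4 TPM against 57.5, 66.5 and 60.9 TPM (-1.03). The groups stood apart for all 3. The risers were Mrpl39 (0.30) and Mrps18b (0.36). After median-of-ratios scaling, which moved the median of all genes to -0.01, 5 rose and 23 fell, and length centring gave 12 and 17.

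In Tfe3WT cells 39 of 76 members fell and 3 rose with MSUc, where 41.6% of all genes fell and 20.0% rose (9 rose and 22 fell after median-of-ratios scaling, and 10 and 21 after length centring). Mrps26 had 14.3, 18.1 and 17.3 TPM with MSUc against 34.0, 28.0 and 32.7 TPM with PBS (log2 change -0.89), and Mrpl34 (-0.97) and Mrpl42 (-0.80) were next by p. Mrps6 (0.50), Mrps18b (0.40) and Mrpl39 (0.29) rose. In the WT cells of the Bhlhe experiment 46 of 78 fell and 4 rose, where 43.4% and 17.1% of all genes did (8 rose and 22 fell after median-of-ratios scaling, and 10 and 22 after length centring). Mrpl2, which lies near the peptidyl transferase centre, had 11.98 and 12.7 TPM with MSUc against 29.2 and 28.0 TPM with PBS (-1.15), and Mrpl44 (-1.02) and Mrps24 (-0.96) followed. Risers included Mrps22 (0.35), Mrpl39 (0.39) and Mrpl45 (0.29).

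In Ampka1WT cells 50 of 77 fell and 2 rose, where 43.9% of all genes fell and 19.7% rose (9 rose and 31 fell after median-of-ratios scaling, and 16 and 21 after length centring). Mrpl10, which anchors the stalk of the large subunit, had 16.0, 15.3 and 16.9 TPM with MSUc against 37.5, 43.7 and 43.2 TPM with PBS (log2 change -1.32, SE 0.11, limma adjusted p = 1.5e-06). Mrpl28 (-1.28) and Mrps15 (-0.91) were next, and Mrps18b (0.58) and Mrpl39 (0.35) rose. In the vehicle cells of the SGC0946 experiment 40 of 78 fell and 3 rose, where 37.7% and 17.8% of all genes did (7 rose and 24 fell after median-of-ratios scaling, and 9 and 18 after length centring). Mrps25 had 5.68, 4.79 and 3.55 TPM with MSUc against 11.1, 13.1 and 12.04 TPM with PBS (-1.22), and Mrpl27 (-1.07) and Mrpl41 (-1.18) followed. Mrpl39 (0.51) and Mrpl3 (0.55) rose without overlap.

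In TfebWT cells 29 of 78 fell and 0 rose (37 lower and 1 higher unadjusted, and 39 fell and 0 rose with voom), where 32.9% of all genes fell and 12.6% rose. Mrpl40 had 17.2, 18.2 and 17.3 TPM with MSUc against 34.0 and 32.9 TPM with PBS (log2 change -0.89, SE 0.14). Mrpl41 (-0.97) and Mrpl27 (-0.96) were next. Median-of-ratios scaling gave 4 rises and 11 falls, and length centring 6 and 9. Moving MSUc replicate 3, whose treatment field reads PBS, into the PBS group left 0 called. Without PBS replicate 1 the count was 18. In the vehicle cells of the metformin experiment 24 of 77 fell and 9 rose, where 34.3% and 19.6% of all genes did (11 rose and 13 fell after median-of-ratios scaling, and 15 and 16 after length centring). Mrpl18, whose bacterial relative binds 5S RNA, had 19.4, 22.1 and 20.54 TPM against 39.9, 35.3 and 36.5 TPM (-0.82), and Mrpl14 (-0.64) and Mrpl2 (-0.88) followed. Mrps22 had 19.8, 22.5 and 20.6 TPM against 11.7, 10.5 and 14.4 TPM (0.74), and Mrpl32 (0.72) and Mrpl20 (0.43) rose as well.

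Across the 8 experiments 13 of the 76 members tested in each fell in all 8, which is 17.1%, where 16.8% of 11186 genes did. No member rose in all 8, where 7.72% of genes did. Of the 13, 9 are of the large and 4 of the small subunit, and 6 have bacterial counterparts while 7 are particular to mitochondria. By the median of their 8 changes the leading ones were Mrps35 (-1.07), Mrpl34 (-0.94), Mrpl28 (-0.92), Mrpl40 (-0.83), Mrpl27 (-0.80), Mrps25 (-0.78), Mrpl18 (-0.77) and Mrps34 (-0.76). At least 6 experiments gave a fall in 31 members (40.8%, against 32.4% of genes), and 44 were lower in all 8, called or not (57.9%, against 43.8% of genes). In 6 members no experiment gave a call. The count of 13 was 0 with TfebWT MSUc replicate 3 in PBS and 8 without TfebWT PBS replicate 2. It was 3 after median-of-ratios scaling and 2 after length centring.

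Mrpl39 and Mrps18b went the other way: they were the 2 members higher with MSUc in all 8 experiments (2.63%, against 16.7% of genes), with changes of 0.29 to 0.51 for Mrpl39 and 0.32 to 0.76 for Mrps18b. Mrpl39 rose in 7 experiments and Mrps18b in 5. Mrpl39 missed the threshold in TfebWT cells, with 30.9, 29.0 and 28.4 TPM with MSUc against 24.3 and 22.3 TPM with PBS. Its paralogues in name did not share the course of Mrps18b: Mrps18c had changes of -0.82 to -0.49 and fell in 7 experiments, and Mrps18a had changes of -0.26 to 0.09 and was called in none.

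**Figure D2:**
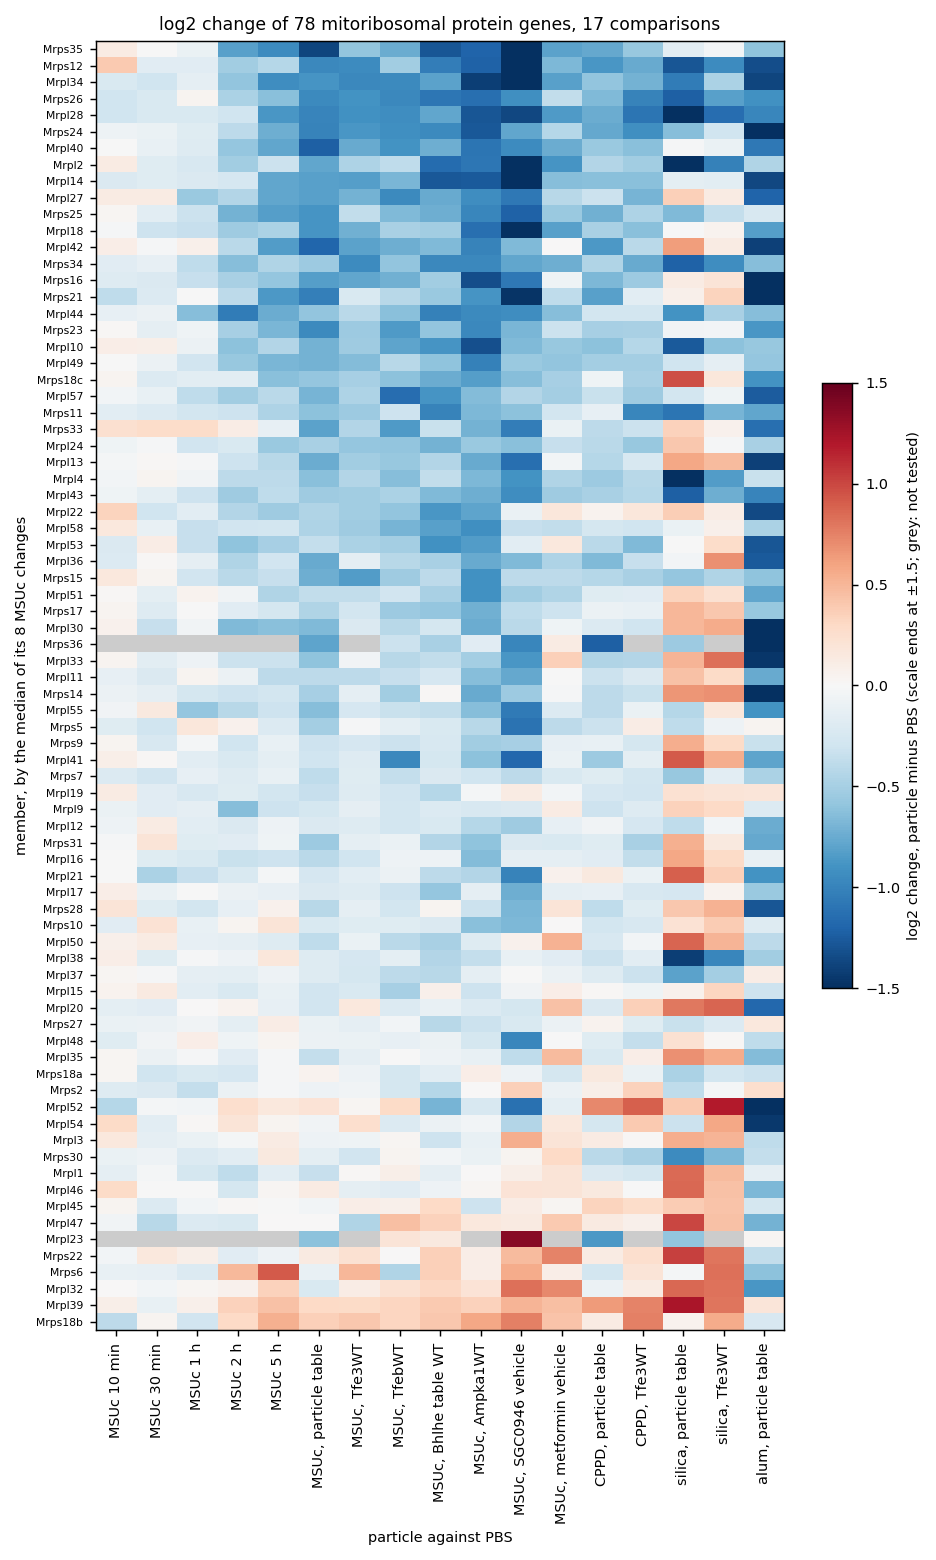
Log2 change (colour, particle minus PBS, red higher and blue lower, scale ending at 1.5 either way, grey not tested) of 78 members (rows, ordered by the median of their 8 MSUc changes) in 17 comparisons of a particle with PBS (columns). Mrps35 heads the rows with a median of -1.07, and Mrpl39 and Mrps18b stand at the foot, above 0 in all 8 MSUc comparisons other than the early times.

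With CPPD more members fell than rose. In the particle experiment 33 of 78 members fell and 3 rose, where 35.8% of all genes fell and 16.6% rose (7 rose and 16 fell after median-of-ratios scaling, and 13 and 8 after length centring). Mrps24 had 19.8, 19.4 and 22.0 TPM with CPPD against 37.0, 38.8 and 30.8 TPM with PBS (log2 change -0.77, SE 0.10), and Mrps21 (-0.81) and Mrps12 (-0.87) were next, the last encoding the homologue of the decoding centre protein S12. Mrpl39 had 27.2, 25.9 and 25.1 TPM against 17.5, 15.9 and 15.9 TPM (0.64), Mrpl52 rose by 0.72 and Mrpl45 by 0.34. In Tfe3WT cells 42 of 76 fell and 7 rose with CPPD, where 41.7% of all genes fell and 18.5% rose (15 rose and 17 fell after median-of-ratios scaling, and 16 and 17 after length centring). Mrps26 (-1.003), Mrpl28 (-1.10) and Mrps11 (-0.98) fell, and Mrpl39 (0.75), Mrpl52 (0.89) and Mrps18b (0.75) rose. The 2 experiments share no library: 26 members fell in both, 3 rose in both and 0 were called in opposite directions, where 30.9% of genes fell in both and 14.3% rose in both.

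Tested directly against MSUc, CPPD left 11 members higher and Mrps30 lower, where 14.8% of all genes were higher and 8.86% lower. Mrps30 had 17.1, 17.1 and 18.4 TPM with CPPD and 20.4, 21.5 and 21.7 TPM with MSUc (log2 difference -0.26, SE 0.08). Scaling changed this count, with 2 higher and 1 lower by median of ratios and 4 higher and 1 lower after length centring, and voom gave 7 higher and 0 lower. Leaving out CPPD replicate 1, 2 or 3 gave 5, 6 or 3 calls, and leaving out MSUc replicate 1, 2 or 3 gave 7, 4 or 4. In each of these 0 members were lower. The call of Mrps30 was thus lost whichever CPPD or MSUc library was left out.

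Silica split the family. In the particle experiment 27 of 78 members rose and 24 fell, where 24.4% of all genes rose and 43.9% fell. The members' median change was 0.03 against -0.25 over all genes, and their summed level was 2107 ± 5.86 TPM with silica (n = 2) against 2015 ± 94.4 TPM with PBS (SD, n = 3). By subunit 21 large and 6 small subunit members rose, and 13 and 11 fell. After median-of-ratios scaling, which moved the median of all genes to 0.05, 43 rose and 14 fell. Length centring gave 32 and 20.

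Mrpl39 had the largest rise with silica, at 35.8 and 43.6 TPM against 17.5, 15.9 and 15.9 TPM with PBS (log2 change 1.22, SE 0.11, limma adjusted p = 2.49e-06). Mrps22, a small subunit gene in which human variants cause cardiomyopathy, had 26.8 and 36.3 TPM against 14.3, 14.4 and 16.0 TPM (1.02, SE 0.15). Mrpl21 had 26.1 and 26.5 TPM against 11.6, 14.5 and 15.1 TPM (0.90, SE 0.12). By the rule for naming, each silica library lay above each PBS library for these members, and likewise for Mrpl20 (0.79), Mrpl50 (0.88) and Mrpl41 (0.92). Among those that fell, Mrpl28 had 14.7 and 10.7 TPM with silica against 45.4, 42.6 and 48.5 TPM with PBS (-1.78, SE 0.15, limma adjusted p = 1.79e-06). Mrpl2 had 10.4 and 5.70 TPM against 30.3, 29.96 and 30.01 TPM (-1.83, SE 0.20). Mrpl4, which lines the exit tunnel, had 15.1 and 11.3 TPM against 39.5, 41.1 and 36.0 TPM (-1.499, SE 0.17). All silica libraries were below all PBS libraries there, as for Mrps30 (-0.95), Mrpl10 (-1.26) and Mrps12 (-1.28). Mrps30 and Mrpl37, whose proteins are related to each other, both fell with silica in the particle experiment and in Tfe3WT cells.

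**Figure D3:**
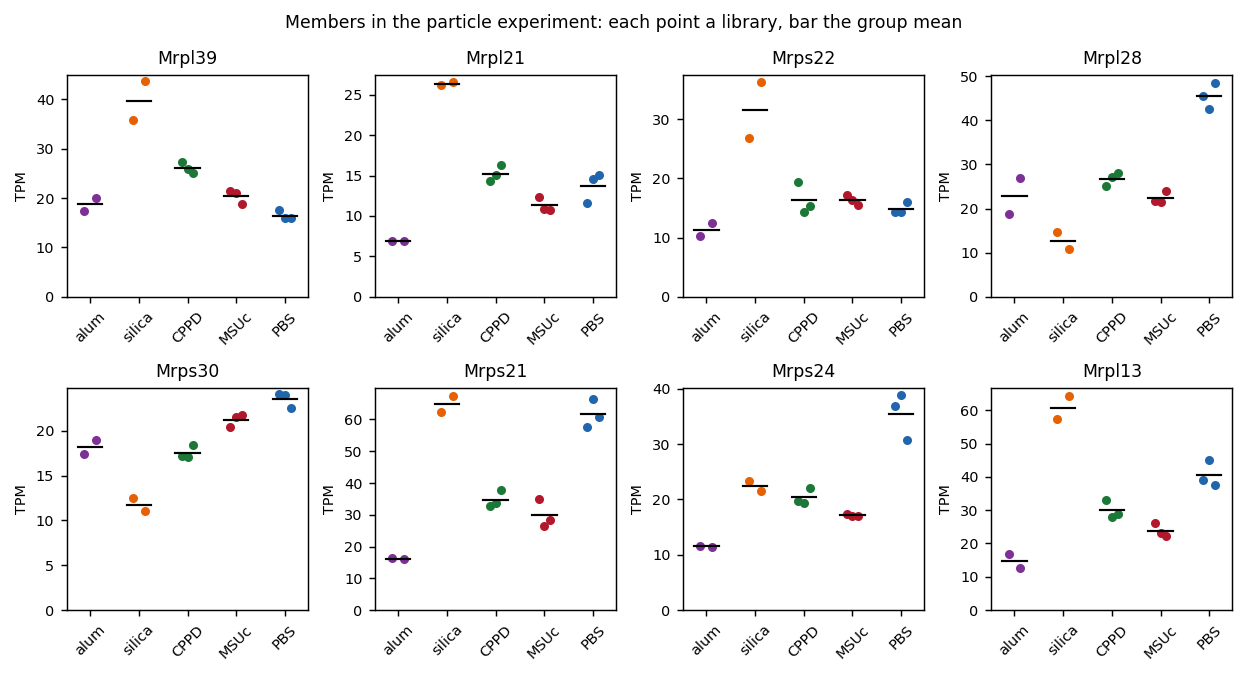
Level in TPM (y axis) of 8 members in the particle experiment with alum, silica, CPPD, MSUc and PBS (x axis); each point is a library and each bar the group mean. With silica Mrpl39 lies at 35.8 and 43.6 TPM and Mrpl28 at 14.7 and 10.7 TPM, against 15.9 to 17.5 TPM and 42.6 to 48.5 TPM with PBS, and with alum Mrps21 lies at 16.3 and 16.0 TPM against 57.5 to 66.5 TPM.

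The split was seen again in Tfe3WT cells, a separate experiment with its own controls. Its balance of rises and falls after median-of-ratios scaling or length centring is not reported here. There 30 of 76 members rose and 18 fell with silica, where 28.8% of all genes rose and 37.1% fell, and the median change was 0.13 against -0.07. Mrpl20 had 74.8, 74.5 and 65.6 TPM with silica against 36.7, 43.6 and 36.0 TPM with PBS (log2 change 0.87, SE 0.09, limma adjusted p = 3e-08). Mrpl52 had 154, 125 and 134 TPM against 56.3, 67.3 and 56.1 TPM (1.19, SE 0.14). Mrpl38, whose product resembles phosphatidylethanolamine-binding proteins, had 16.4, 11.8 and 12.5 TPM against 27.5, 26.4 and 28.6 TPM (-0.98, SE 0.10). The groups stood apart for each. Mrpl39 (0.81), Mrpl32 (0.82), Mrpl36 (0.69) and Mrps22 (0.81) rose, and Mrpl2 (-1.01), Mrpl28 (-1.15), Mrpl43 (-0.74), Mrps26 (-0.82) and Mrps34 (-0.93) fell. Of 76 members tested in both experiments 21 rose in both, 18 fell in both and 0 were called in opposite directions, where 20.6% of 12096 genes rose in both and 35.4% fell in both. Spearman's rho between the changes was 0.82 over the members and 0.88 over all genes, as a description across genes, which are not independent. Mrpl52 differed in size, with 1.19 here and a call in neither direction in the particle experiment.

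Markers of other cells moved with silica in both experiments. The 8 neutrophil markers summed to 262 to 363 TPM with silica against 49.8 to 115 TPM with PBS in the particle experiment, with 6 and 4 of 8 above 1 TPM. In Tfe3WT cells they summed to 1469 to 2008 TPM against 305 to 599 TPM, with 8 of 8 above 1 TPM in both groups. In the particle experiment the 7 macrophage markers summed to 34426 to 39199 TPM with silica against 27749 to 30508 TPM with PBS, although 4 of the 7 fell and 2 rose. The 9 cycling cell markers summed to 355 to 503 TPM against 190 to 235 TPM. Their part in the silica result was not tested. Tested against MSUc, silica left 46 members higher and 10 lower, where 30.3% of all genes were higher and 33.3% lower (40 higher and 18 lower after length centring). The median difference was 0.51 for members and -0.06 for all genes.

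**Figure D4:**
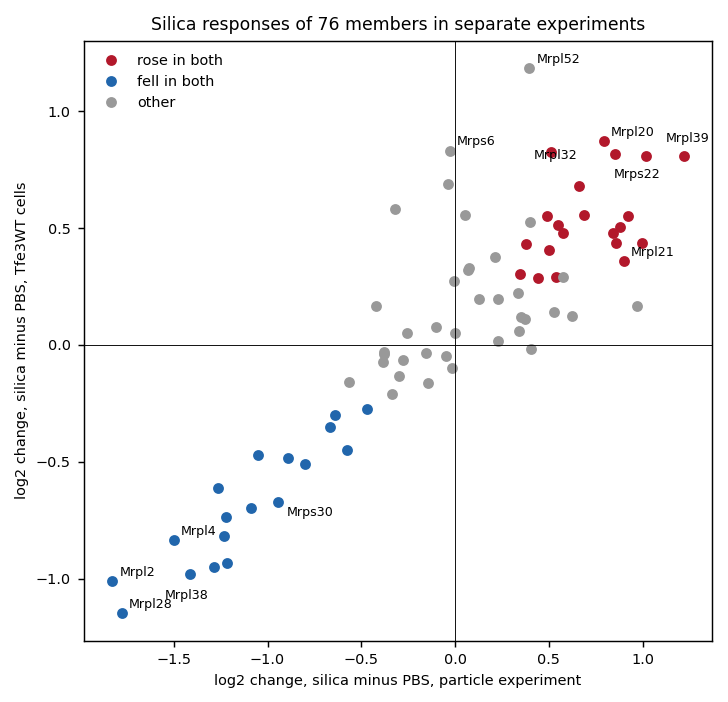
Log2 change with silica against PBS of 76 members in the particle experiment (x axis) and in Tfe3WT cells (y axis); red members rose in both (21), blue ones fell in both (18) and grey ones did neither. Mrpl39 lies at the upper right with 1.22 and 0.81 and Mrpl28 at the lower left with -1.78 and -1.15.

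With alum most of the family fell. In the particle experiment 56 of 78 members fell and 0 rose (63 lower and 0 higher unadjusted, and 68 fell and 0 rose with voom), where 19.2% of all genes fell and 27.1% rose. The share of members that fell was 71.8%, and their median change was -0.69 against 0.08 over all genes. The summed level was 1124 ± 28.0 TPM with alum (n = 2) against 2015 ± 94.4 TPM with PBS (SD, n = 3). Of the 56, 37 are large and 18 small subunit members, and the last is Mrps36. Median-of-ratios scaling gave 65 falls and 0 rises, and length centring 29 falls and 6 rises, and the count thus depends on how transcript length is treated.

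Mrps21, one of the shortest small subunit genes, had 16.3 and 16.0 TPM with alum against 57.5, 66.5 and 60.9 TPM with PBS (log2 change -1.87, SE 0.12, limma adjusted p = 4.12e-07). Mrps24, the homologue of bacterial S3, had 11.6 and 11.4 TPM against 37.0, 38.8 and 30.8 TPM (-1.54, SE 0.11). Mrpl13 had 16.8 and 12.8 TPM against 39.05, 45.1 and 37.4 TPM (-1.40, SE 0.13). Alum libraries were lower than every PBS library in these, and in Mrps14 (-1.59), Mrpl30 (-1.57) and Mrps12 (-1.33). Mrpl39, which rose with each other particle here, had a change of 0.18 and was not called. Cytosolic ribosomal protein genes gave 59 falls and 1 rise of 76 (median -1.30), and Nduf genes 33 falls and 0 rises of 36 (median -1.31). Mitoribosome assembly factors gave 6 falls and 2 rises of 23 (median -0.19) and translation factors 2 and 2 of 15 (median -0.01). Macrophage markers summed to 16080 to 16210 TPM with alum against 27749 to 30508 TPM with PBS, and their part in the result was not tested.

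Against MSUc directly, alum left 33 members lower and 7 higher, where 11.5% of all genes were lower and 41.7% higher. The median difference was -0.29 for members and 0.32 for all genes. After median-of-ratios scaling 54 were lower and 0 higher. Without alum replicate 1 the count was 25 and without alum replicate 2 it was 26. In the same table silica gave 31 rises and 8 falls of 76 cytosolic ribosomal protein genes and 16 rises and 5 falls of 36 Nduf genes, and MSUc gave 4 and 50 and 0 and 33.

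Levels at rest, in PBS, were compared between genotypes and drugs. Metformin, a biguanide that inhibits respiratory complex I, gave 28 rises and 2 falls among 77 members against vehicle, where 39.5% of all genes were called in either direction. The share of members called is near that. By direction 36.4% of members and 23.2% of all genes rose, and 2.60% of members and 16.3% of all genes fell. The median change was 0.29 for members and 0.08 for all genes, and the summed level was 2422 ± 13.6 TPM against 2025 ± 37.6 TPM (SD, n = 3 each). Mrpl57, a large subunit gene with no bacterial counterpart, had 20.8, 23.0 and 23.5 TPM with metformin against 11.4, 10.7 and 9.97 TPM with vehicle (log2 change 1.00, SE 0.10, limma adjusted p = 9.11e-06). Mrpl32 had 36.7, 39.9 and 42.2 TPM against 22.4, 21.1 and 19.3 TPM (0.89, SE 0.11), and Mrpl53 had 53.3, 46.4 and 59.0 TPM against 28.2, 29.2 and 27.4 TPM (0.88). All metformin libraries were above all vehicle libraries, as for Mrpl37 (0.54). Mrps6 (-0.47) and Mrpl18 (-0.28) fell. By subunit 22 large and 6 small subunit members rose.

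Median-of-ratios scaling left 21 rises and 2 falls with metformin, and length centring 21 and 3. Of related lists, mitoribosome assembly factors gave 11 rises and 0 falls of 23 (median 0.46) and translation factors 7 and 1 of 15 (median 0.24). Cytosolic ribosomal protein genes gave 7 and 8 of 75 (median 0.02) and Nduf genes 3 and 6 of 36 (median -0.09). Macrophage markers summed to 11315 to 12884 TPM with metformin against 22816 to 25677 TPM with vehicle, and their part in the result was not tested. The MSUc response differed with metformin in 1 member, Mrpl30, where 12.2% of all genes differed. Mrpl30 had 103, 93.9 and 89.9 TPM with metformin and MSUc and 77.0, 72.8 and 70.8 TPM with metformin and PBS, against 49.4, 44.7 and 44.3 TPM with vehicle and MSUc and 48.0, 43.7 and 53.3 TPM with vehicle and PBS (difference of changes 0.44, SE 0.13, limma adjusted p = 0.0411). The count was 0 after median-of-ratios scaling, with voom, and without metformin PBS replicate 1 or 2, vehicle MSUc replicate 3, or vehicle PBS replicate 1 or 3, and 3 at a filter of 5 TPM. It was 2 without metformin MSUc replicate 1, metformin PBS replicate 3 or vehicle MSUc replicate 1.

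The response to MSUc was compared between the libraries labelled Ampka1KO and WT. The interaction was positive in 37 of 77 members (48.1%) and negative in 0 (44 positive and 1 negative unadjusted, and 35 and 1 with voom), where 50.6% of all genes were called in either direction, with 34.7% of genes positive and 15.9% negative. The share of members called is thus near that of all genes, and 12 were positive and 5 negative after median-of-ratios scaling. The median difference of changes was 0.50 for members and 0.30 for all genes. The summed level was 2159 ± 197 TPM with MSUc and 2378 ± 157 TPM with PBS in the libraries labelled Ampka1KO. In WT it was 1452 ± 23.6 TPM with MSUc and 2253 ± 84.8 TPM with PBS (SD, n = 3 each). Mrpl13 had 74.5, 66.5 and 63.5 TPM with MSUc and 51.6, 62.1 and 60.1 TPM with PBS in Ampka1KO, against 25.2, 27.1 and 22.6 TPM and 46.2, 40.8 and 41.6 TPM in WT (0.99, SE 0.14, limma adjusted p = 0.000177). Mrps25 had 11.7, 13.9 and 13.99 TPM with MSUc and 12.8, 13.4 and 15.0 TPM with PBS in Ampka1KO, against 7.47, 6.99 and 7.37 TPM and 16.5, 15.0 and 14.6 TPM in WT (0.93, SE 0.14). With MSUc every Ampka1KO library was above every WT library for both. Mrps18c (0.89) and Mrpl10 (0.92) also differed.

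The 2 genotypes differed in markers of other cells. Stromal markers, of which all 5 averaged above 1 TPM in 3 of the groups and 4 in WT with PBS, summed to 4543 to 5310 TPM with MSUc and 1579 to 2295 TPM with PBS in the libraries labelled Ampka1KO, against 107 to 336 TPM and 122 to 215 TPM in WT. Macrophage markers summed to 7275 to 9532 TPM with MSUc and 22054 to 24786 TPM with PBS in Ampka1KO, against 24719 to 30028 TPM and 35491 to 39582 TPM in WT. Their part in the interaction was not tested. After length centring 11 members were positive and 5 negative in the interaction. At rest 14 members were higher and 2 lower in the libraries labelled Ampka1KO, where 47.7% of all genes were called. Mrps18b had 17.1, 20.9 and 14.2 TPM in Ampka1KO against 9.70, 9.41 and 10.2 TPM in WT (log2 change 0.76, SE 0.12), and Mrps2 (0.55), Mrpl3 (0.45) and Mrpl13 (0.42) were higher, while Mrpl9 (-0.46) and Mrpl24 (-0.40) were lower. The count at rest was 28, 23 higher and 5 lower, with the compared groups alone, and 3 higher and 15 lower after median-of-ratios scaling. Length centring gave 11 higher and 4 lower.

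The transcription factor experiments and the DOT1L inhibitor gave few calls. In the libraries labelled Tfe3KO 1 member was lower than in Tfe3WT at rest, where 2.37% of all genes were called (1 higher and 4 lower unadjusted, and 0 with voom). It was Mrpl47, with 7.33, 5.97 and 6.36 TPM in Tfe3KO against 7.81, 8.97 and 11.7 TPM in Tfe3WT (log2 change -0.46, SE 0.12, limma adjusted p = 0.0367). This call was gone without Tfe3KO replicate 2 or 3 or Tfe3WT replicate 2 or 3, and 2 members were called without Tfe3KO replicate 1. Mrpl47 was also the 1 member whose MSUc response differed, where 1.73% of all genes did. It had 9.59, 8.33 and 8.49 TPM with MSUc in Tfe3KO, against 6.54, 6.93 and 6.25 TPM with MSUc in Tfe3WT (difference of changes 0.83, SE 0.16, limma adjusted p = 0.0104). All Tfe3KO libraries were higher with MSUc and lower at rest. With only the compared groups fitted, neither call passed.

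In TfebTg cells Mrps2 was lower at rest, with 11.5, 9.21 and 8.22 TPM against 19.5 and 22.5 TPM in TfebWT (log2 change -1.06, SE 0.18, limma adjusted p = 0.023), where 0.717% of all genes were called. With MSUc it had 12.9, 8.27 and 9.63 TPM in TfebTg and 16.2, 17.8 and 17.6 TPM in TfebWT, so all TfebTg libraries were below all TfebWT ones. Without TfebTg PBS replicate 2 or 3 or either TfebWT PBS replicate the call was lost. No member's MSUc response differed in TfebTg (1 positive and 1 negative unadjusted, 0 with voom), where 0.1% of all genes did. In B40KO cells 0 members were called at rest (2 higher and 4 lower unadjusted), where 0.0824% of all genes were, and 0 in the interaction (2 and 4 unadjusted), where 0.00824% were. In B41KO cells 0 were called at rest (3 higher and 6 lower unadjusted), where 2.76% of all genes were, and 0 in the interaction (8 positive and 1 negative unadjusted), where 0.132% were. Voom called 0 in these 4 comparisons. The shares of all genes are at the adjusted threshold, so the unadjusted counts have no share beside them.

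With SGC0946, which blocks the methyltransferase of histone H3 lysine 79, 0 members were called at rest (5 higher and 0 lower unadjusted, 0 with voom), where 0.673% of all genes were. In the interaction 0 were called (5 positive and 0 negative unadjusted, 1 with voom), where 0.0325% of all genes were, and 1 was called without vehicle MSUc replicate 3. The median difference of changes was 0.22 for members and -0.02 for all genes. The summed level was 1570 ± 76.7 TPM with SGC0946 and MSUc and 1984 ± 63.4 TPM with SGC0946 and PBS, against 1152 ± 60.6 TPM with vehicle and MSUc and 1666 ± 129 TPM with vehicle and PBS (SD, n = 2 for SGC0946 and PBS, 3 for the others). Both sums were higher with SGC0946, without overlap between its libraries and those of vehicle. This was not particular to the family. Cytosolic ribosomal protein genes summed to 13331 ± 768 TPM with SGC0946 against 7248 ± 837 TPM with vehicle, both with MSUc. With PBS they summed to 16411 ± 541 TPM against 12630 ± 1186 TPM. Vehicle MSUc replicates 2 and 3 held 2.83 and 3.54 M recovered reads.

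Chromatin lists that the authors deposited name 0 to 8 members each. Of 78 members, 0 are named nearest to a region with H3K27ac gained with MSUc, where 4.71% of all genes are, and 0 to one with H3K4me3 gained, where 2.70% are. H3K27ac, a mark of active promoters and enhancers, is listed in the authors' deposited table as reduced near Mrps23 (chr11:88202840-88204840, 548 bases upstream, log2 change -1.10, adjusted p 0.0109) and Mrps33 (chr6:39809996-39811996, 60 bases upstream, -1.73, adjusted p 0.0160), where 4.46% of all genes are named. Mrps23 is among the members that fell in all 8 MSUc experiments. Mrps33 was not called at 5 h (-0.13), in TfebWT cells (-0.85) or in the Bhlhe WT cells (-0.33). H3K4me3 is listed as reduced near Mrpl16, 3762 bases upstream (-1.49, adjusted p 0.0372), where 2.05% of all genes are named. Mrpl16 was not called in the same comparisons (-0.32, -0.08 and -0.08). For Mrps33 and Mrpl16 the other MSUc experiments are not reported here. A link between mark and RNA was not tested. TFE3 peaks gained with MSUc are listed nearest to 6 members (7.69%), namely Mrpl14, Mrpl37, Mrpl41, Mrpl45, Mrps18a and Mrps27, where 11.3% of all genes are named. TFEB peaks gained name Mrpl1 (1.28% of members, 12.9% of all genes). DOT1L peaks gained name Mrpl14, Mrpl37, Mrpl45 and Mrpl57 (5.13% of members, 10.0% of all genes). DOT1L peaks reduced name 8 members (10.3%), near the 10.9% of all genes. The closest of these factor peaks lies 3176 bases from the start site of a member. The factor lists hold 0 peaks within 1 kb of any start site, so they cannot show whether a peak lay at a member's promoter. Coordinates are mm10.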

How the data were processed

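Poly-A RNA of cultured macrophages was sequenced in strand-specific libraries, and 115 libraries in 8 expression tables were used. Per the submitters' processing notes, STAR and HOMER with the mm10 build were used, with versions not given in the sources used here. The deposited values were taken as TPM: the authors' file headers name no unit, but value times transcript length was a whole multiple of 1 step per library for at least 99.984% of values (within 0.15 read). The rows kept sum to 528079 to 569594 TPM a library, and the steps gave the recovered reads. A count test had been planned. Since the tables hold TPM, limma 3.58.1 (R 4.3.3, with a trend) was run on log2(TPM + 1) with all groups of a table in 1 fit. A gene was tested if the number of libraries in which it reached 1 TPM was no smaller than the smallest group, and p-values were two-sided and adjusted over all genes tested (Benjamini-Hochberg, 0.05). Each difference is the first named group minus the second, and an interaction is the MSUc change in the altered cells minus that in their controls. Groups of 2 or 3 libraries limit precision. On simulated data 200 genes changed by 1 on the log2 scale were added, and 50% were recovered in the 5 h comparison (12350 genes) and 57.5% in the silica comparison of the particle table (12314 genes).

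Alternatives were median-of-ratios scaling, a pseudocount of 0.1, no filter, a filter of 5 TPM, the compared groups alone, the replicate block, centring in 20 bins of transcript length, voom on the recovered reads, leaving out each library, and TfebWT MSUc replicate 3 in PBS. A crossed block in the time course was chosen after seeing the data. No 2 libraries of the same group were identical. The 2 value columns that matched no single sample label were not used. They were a further silica column and a further SGC0946 PBS column, and alum replicate 3 had no column. Whether that silica column belongs to the missing alum replicate cannot be told from the labels. Chromatin lists carry the authors' deposited log2 changes and adjusted p-values per the file headers, used as given. Python 3.11.15, pandas 2.3.3, numpy 2.4.6, scipy 1.17.1 and matplotlib 3.10.9 were used.

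The members and lists were chosen with earlier results of these data known. Named members were, in each comparison of a particle with PBS, up to 6 that rose and 6 that fell with the smallest adjusted p among those without overlap between groups. To these were added members called in all 8 MSUc experiments (up to 8 by median) or against the majority in at least 4, the 4 highest and 4 lowest by PBS level, the Mrps18 family, up to 4 in each direction at rest or in an interaction, any count of 5 or fewer, and up to 4 genes of each related list at 5 h, of which 1 is not reported here. Other genes were chosen after their values were seen.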

Additional observations from a re-analysis of the deposited data

Results flagged for a closer look

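These results were singled out because the response to MSUc differed between the altered cells and their controls by an interaction term in limma. In the libraries labelled Tfe3KO 1 member differed from Tfe3WT, Mrpl47, by 0.83 on the log2 scale, where 1.73% of all genes differed. In the libraries labelled Ampka1KO 37 members (48.1%) differed from WT, near the 50.6% of all genes that did, and 17 did after median-of-ratios scaling and 16 after length centring. Among the 37 were Mrpl13 by 0.99, Mrps25 by 0.93, Mrps18c by 0.89 and Mrpl10 by 0.92. With metformin 1 member differed from vehicle, Mrpl30, by 0.44, where 12.2% of all genes differed. No group held enough libraries for a test of single libraries that stand far from the others.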

How the results depend on the processing

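Of the 114 named values of a member in a comparison, 0 changed direction under any alternative. They were picked for a small adjusted p, which makes a change of direction unlikely. The result was weaker for 16 at the lowest value over leaving out 1 library and for 13 with the compared groups alone. It was weaker for 7 with voom, 5 with median-of-ratios scaling and 4 with TfebWT MSUc replicate 3 in PBS. Counts moved more. With median-of-ratios scaling the members called were 10 at 2 h, 28 with MSUc in the particle experiment, 15 in TfebWT, 30 in the Bhlhe WT cells, 23 and 32 with CPPD in the particle experiment and in Tfe3WT, 3 for CPPD against MSUc, 0 for Tfe3KO at rest, 17 for the Ampka1KO interaction and 0 for the metformin interaction. With transcript length centring they were 12 at 2 h, 29 with MSUc in the particle experiment, 15 in TfebWT, 32 in the Bhlhe WT cells, 27 in the SGC0946 vehicle cells, 21 with CPPD and 35 with alum in the particle experiment, 5 for CPPD against MSUc, 0 for Tfe3KO at rest and 16 for the Ampka1KO interaction. Members that fell in all 8 MSUc experiments numbered 3 and 2 under these settings, and members that rose in all 8 numbered 1 and 2. With the compared groups alone the counts were 0 at 1 h, 5 at 2 h, 22 at 5 h, 0 for Tfe3KO and TfebTg at rest, 28 for Ampka1KO at rest, 0 for the Tfe3KO interaction and 8 for falls in all 8. Voom gave 5 at 1 h, 7 for CPPD against MSUc, 0 for Tfe3KO at rest, 1 for the SGC0946 interaction and 0 for the metformin interaction. With no filter the counts were 0 for Tfe3KO and TfebTg at rest and 8 for falls in all 8, and a filter of 5 TPM gave 3 for the metformin interaction. With TfebWT MSUc replicate 3 in PBS they were 0 in TfebWT, 0 for TfebTg at rest and 0 for falls in all 8. The cause of these shifts was not tested.

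Leaving out 1 library gave 0 to 2 members at 1 h, 14 to 19 at 2 h, 21 to 25 at 5 h, 18 to 31 in TfebWT, 3 to 7 for CPPD against MSUc, 25 to 35 for alum against MSUc, 0 to 2 for Tfe3KO at rest, 0 to 1 for TfebTg at rest, 0 to 1 for the SGC0946 interaction, 0 to 2 for the metformin interaction and 8 to 13 for falls in all 8. Outside the time course the correlation of deviations between same-numbered libraries lay between -0.23 and 0.38. In the Tfe3 experiment it was -0.08 to 0.38, against -0.25 to 0.14 between differently numbered libraries. In the metformin experiment it was -0.03 to 0.19 against -0.21 to 0.05, and in the particle experiment -0.23 to 0.21 against -0.21 to 0.23. Some pairing is thus possible in the first 2, and the main fits did not use it. In the time course the correlation was 0.48 at 10 min, -0.45 at 30 min, -0.55 at 1 h, -0.49 at 2 h and -0.42 at 5 h, which may mean crossed numbers from 30 min on. With the replicate block 0 members were called for TfebTg at rest and 1 for B41KO at rest, and other counts stayed within 1.5 times. A crossed replicate block, chosen after seeing the data, called 1 at 30 min, 8 at 1 h and 38 at 2 h. Groups of 2 or 3 libraries and depths down to 2.12 M reads limit what low members such as Mrpl23 can show.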
